A study of Mus musculus with 4 samples.

Results

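The genes that encode the proteasome were examined in cultured mouse cavernous endothelial cells, which line the sinusoids of the penis, after 72 hours with normal or high glucose. The members were all gene symbols of the form Psma, Psmb, Psmc, Psmd, Psme, Psmf or Psmg followed by a number. The 3 inducible catalytic subunits Psmb8, Psmb9 and Psmb10 and pseudogene symbols were left out. The pattern matched 50 symbols and left 47 members of the 23238 symbols in the count tables. They comprise 8 alpha and 8 beta subunits of the core, 6 ATPases and 3 other subunits of the base, 8 lid subunits, 5 activators and inhibitors, 7 assembly factors and 2 further symbols. Of the last pair, Psmc3ip is a recombination factor and no proteasome subunit, and Psme2b is a close copy of Psme2. Low counts kept 1 member, Psma8, out of the test, so 46 were tested.

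RNA was sequenced from 2 normal glucose libraries, titled NG1 and NG2 (replicates 1 and 2), and 2 high glucose libraries, titled HG2 and HG4 (replicates 2 and 4). The source is given as corpus cavernosum tissue, and both groups grew in M199 with 20% FBS, 1% penicillin and streptomycin and 0.5 mg/ml heparin. The sources used here do not give the strain, the age, the glucose concentrations or an osmotic control, nor whether the replicates were separate cultures or animals. A p-value here thus reflects the spread among these 4 libraries, and that spread may be technical.

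Totals ran from 46571770 counts in NG2 to 74971589 in HG4, with 18190 to 18801 symbols detected. NG2 stood apart: its log2 CPM correlated with the other libraries at a Pearson r of 0.984 to 0.985 across genes, against 0.992 to 0.994 among the other 3. Defining endothelial transcripts were scarce: the 10 endothelial markers summed to 11.9 to 15.3 CPM, 7 of them had a median under 1 CPM, and Cldn5 was at 0 in 3 libraries. Cdh5 lay between 4.61 and 6.56 CPM and Pecam1 between 2.32 and 3.58 CPM. The 8 fibroblast markers summed to 9329 to 11175 CPM, the 7 smooth muscle and pericyte markers to 444 to 633 CPM and the 6 leukocyte markers to 32.3 to 43.4 CPM. The endothelial, fibroblast, smooth muscle and leukocyte sums were each highest in NG2, the fibroblast sum by little (11164 CPM in HG2), and no marker in any list passed the test between glucose groups. The label of the cells was kept, although the markers go against it. In such bulk RNA, fewer cells of a type and less RNA per cell cannot be told apart.

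The proteasome is the main protease of the cytosol and nucleus. Its core is a barrel of alpha rings, which form the gate, around beta rings, which hold the catalytic sites. The regulatory particle caps the barrel: its lid removes ubiquitin from the substrate, and the ATPases of its base unfold the protein and thread it into the core. Subunit genes are known to be controlled together, by Nfe2l1 when the protease is impaired and by Nfe2l2 under oxidative stress, both through antioxidant response elements.

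The 250 bases upstream of the RefSeq start site (GRCm38.p6) were read for 39 of the 47 members, in 42 windows. No window was at hand for Psma8, Psmb1, Psmb2, Psmb7, Psmc3, Psmd3, Psmd7 and Psmg2, so the catalytic subunit Psmb7 was not read. Some windows lay wholly within the GENCODE model of their gene: those of Psmb11, Psmd5, Psmd9, Psmd13, Psme1 and Psmf1 and the second of Psma6 and Psmc2. The window of Psmd1 lay within it for 232 bases. Motif matches in these windows are counted too. The windows shown overlapped the model by at most 28 bases. Psmb5 and Psmb6 are shown as catalytic subunits with an antioxidant response core, Psma2 as the tested core subunit that was lowest in NG2 relative to the other libraries, and Psmd8 and Psme3 as members that were highest in NG2. Capitals mark the antioxidant response core (TGACNNNGC or TGAGNNNGC) in Psmb5 and Psmb6, and the CCAAT box, a general promoter element, in Psma2 and, on the opposite strand as ATTGG, in Psme3. Psmd8 held neither motif and is in lower case throughout. Each line runs 5′ to 3′ in the direction of the gene, towards the start site.
Psmb5: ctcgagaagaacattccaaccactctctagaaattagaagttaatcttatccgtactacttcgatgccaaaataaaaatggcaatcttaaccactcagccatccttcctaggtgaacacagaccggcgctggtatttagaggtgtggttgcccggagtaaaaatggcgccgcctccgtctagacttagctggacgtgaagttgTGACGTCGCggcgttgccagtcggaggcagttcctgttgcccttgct
Psmb6: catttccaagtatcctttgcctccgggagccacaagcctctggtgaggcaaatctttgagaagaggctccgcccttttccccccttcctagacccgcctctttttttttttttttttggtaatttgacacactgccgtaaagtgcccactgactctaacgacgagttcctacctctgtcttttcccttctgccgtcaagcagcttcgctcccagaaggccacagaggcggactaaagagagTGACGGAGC
Psma2: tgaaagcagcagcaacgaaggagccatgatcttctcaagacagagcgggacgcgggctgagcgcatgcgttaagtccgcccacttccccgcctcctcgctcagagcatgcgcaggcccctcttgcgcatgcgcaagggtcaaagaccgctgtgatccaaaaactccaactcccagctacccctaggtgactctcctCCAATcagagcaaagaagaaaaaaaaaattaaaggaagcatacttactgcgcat
Psmd8: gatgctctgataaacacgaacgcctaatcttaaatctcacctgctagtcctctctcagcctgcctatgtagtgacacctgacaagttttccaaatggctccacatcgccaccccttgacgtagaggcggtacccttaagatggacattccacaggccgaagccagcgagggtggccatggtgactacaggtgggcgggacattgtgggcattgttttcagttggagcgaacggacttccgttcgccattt
Psme3: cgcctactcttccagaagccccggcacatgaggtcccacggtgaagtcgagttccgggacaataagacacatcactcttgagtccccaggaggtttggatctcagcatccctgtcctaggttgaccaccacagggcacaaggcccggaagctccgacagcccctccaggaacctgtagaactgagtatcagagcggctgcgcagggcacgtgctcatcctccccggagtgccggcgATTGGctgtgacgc
The windows are chr14:54617996-54618245 on the minus strand for Psmb5, chr11:70525107-70525356 on the plus strand for Psmb6 and chr13:14612992-14613241 on the plus strand for Psma2. They are chr7:29180674-29180923 on the minus strand for Psmd8 and chr11:101315963-101316212 on the plus strand for Psme3. The first base of the marked motif lay 47 bases upstream of the start site in Psmb5, 9 in Psmb6, 54 in Psma2 and 14 in Psme3. Searched on both strands, with any overlap between the motifs allowed, the antioxidant response core was in 14 of the 42 windows (33.3%) and in 23.0% of the 32851 windows of the whole table. The CCAAT box was in 14 of the 42 windows and in 33.9% of all windows. A match describes the letters only and does not show binding.

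No proteasome gene passed the test between high and normal glucose. None of the 46 tested members reached an adjusted p of 0.05 in edgeR's quasi-likelihood test, where 2 of all 16270 genes were called higher (0.0123%) and none lower (0%). At an unadjusted p under 0.05 there was 1 member, the activator subunit Psme2, and 887 of all genes (5.45%). DESeq2 (0.163% of all genes called in each direction), limma-voom (0.0123% higher, 0% lower) and edgeR's exact test (0.344% in each direction) also called none of the members. Neither did fits with other scalings, which called 0.0123% to 0.0184% of all genes higher and 0% lower, or the fit without a filter on low counts (0.306% higher and 0.32% lower). The fitted log2 fold changes were small and mostly on one side. They were above 0 in 40 of the 46 members, against 49.2% of all genes, with a median of 0.25 against -0.004 over all genes. Both high glucose libraries lay above both normal ones in 16 members (16.3% of all genes) and below them in 1, Psmf1 (16.2%), and the groups overlapped in the other 29. The members were read from the same 4 libraries and are not replicates of the condition.

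The position above 0 rested on 1 library. NG2 was the lowest of the 4 libraries in 36 of the 46 members, against 35.4% of all genes, while NG1, HG2 and HG4 lay close together. It was the highest library in 5 members, against 36.5% of all genes. The median member was 0.48 lower in NG2 than in NG1 on the log2 scale, although both are normal glucose. From NG1 the median member differed by 0.04 in HG2 and by 0.03 in HG4. Without NG2 the median log2 fold change of the members was 0.02, 27 of 47 were above 0 (51.2% of all genes) and none was called (0.405% of all genes were called higher and 0.382% lower). Without NG1, with NG2 as the only normal glucose library, the median was 0.52, 41 of 47 were above 0 (50.3% of all genes) and 22 of 47 members were called higher (7.56% of all genes) and none lower (8.67%). In these fits the lone normal glucose library is assumed to vary like the high glucose libraries. Leaving out HG2 gave a median of 0.26 with none called (0.137% of all genes higher and 0.0717% lower), and leaving out HG4 gave 0.26 with none called (0.12% and 0.102%).

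**Figure D1:**
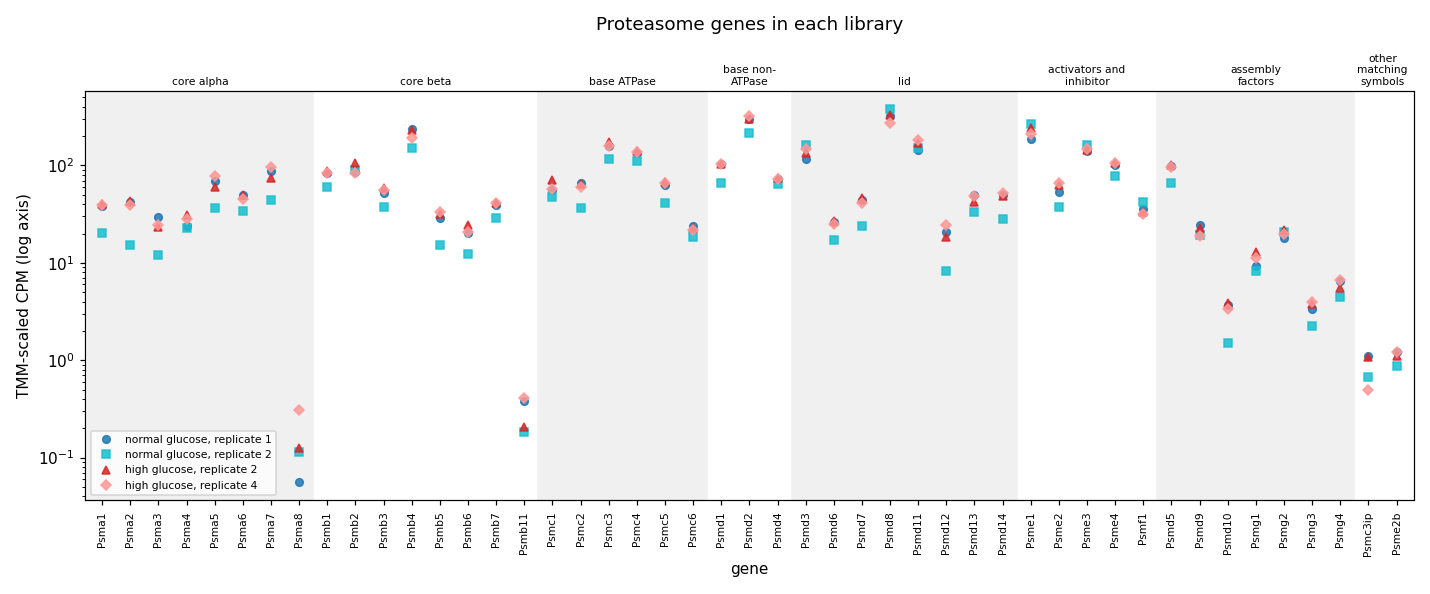
TMM-scaled CPM of each of the 47 members (log axis), grouped by role, with 1 point for each of the 4 libraries. The square of NG2 is the lowest point in 36 of the 46 tested members, while Psmd3, Psmd8, Psme1, Psme3 and Psmf1 were highest there.

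**Figure D2:**
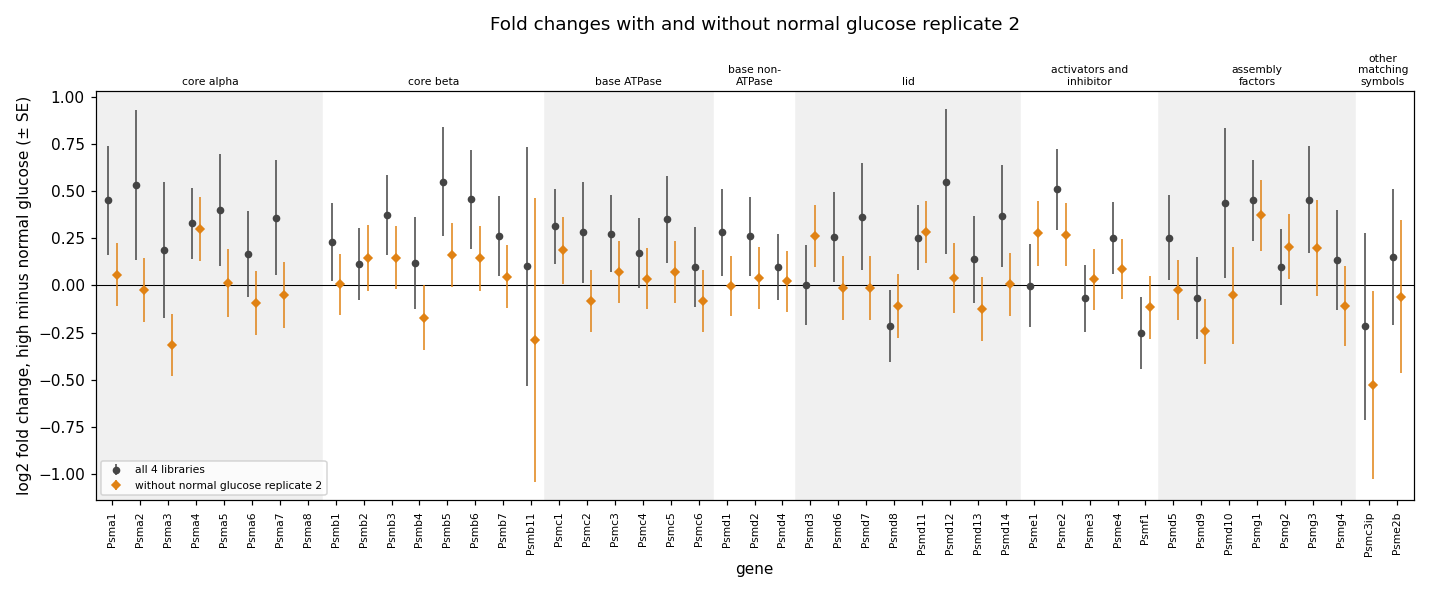
Fitted log2 fold change, high minus normal glucose, with its SE, for each member in all 4 libraries (circles) and without NG2 (diamonds). Psma8, not tested with all 4 libraries, is not drawn. The circles of 40 members lie above 0, and the diamonds spread on both sides of it around a median of 0.02.

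The alpha subunits form the outer rings of the core. All 7 tested were lowest in NG2, and their summed level was 341 CPM in NG1, 185 CPM in NG2, 322 CPM in HG2 and 351 CPM in HG4. NG2 thus stood apart from its own group, and NG1 lay between the high glucose libraries. The median log2 fold change was 0.36, with all 7 above 0, and -0.01 without NG2, with 4 of 8 above 0.

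Psma2, on chromosome 13 at 14613240 to 14674236, had the highest fold change of the ring. It stood at 42.0 CPM in NG1, 15.1 CPM in NG2, 43.2 CPM in HG2 and 39.4 CPM in HG4. NG2 was low alone and the groups overlapped, since NG1 exceeded HG4. Its log2 fold change was 0.53 (SE 0.40), with an adjusted p of 0.991 by edgeR's quasi-likelihood test. The value without NG2 was -0.03.

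Psma1 was also low in NG2 alone, with 38.4 CPM in NG1 and 20.0 CPM in NG2, against 40.3 CPM in HG2 and 39.6 CPM in HG4. Its groups did not overlap, but NG1 was within 2 CPM of both high glucose libraries. The log2 fold change of Psma1 was 0.45 (SE 0.29). Psma4 differed from the rest of the ring, since its 2 normal glucose libraries were alike: 24.0 CPM in NG1 and 23.0 CPM in NG2, against 30.9 CPM in HG2 and 28.2 CPM in HG4. Both high glucose libraries were above both normal ones, by a log2 fold change of 0.33 (SE 0.19) that was 0.30 without NG2. Its unadjusted p was 0.116 in edgeR's quasi-likelihood test, and 45.5% of its 32-base stretches occur in other genes.

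Psma6 had the lowest fold change of the ring, at 50.2 CPM in NG1, 33.8 CPM in NG2, 49.5 CPM in HG2 and 44.9 CPM in HG4. NG1 was the highest library there and the groups overlapped, with a log2 fold change of 0.17 (SE 0.23). Psma3, Psma5 and Psma7 had log2 fold changes of 0.19, 0.40 and 0.36, with overlapping groups. Psma8 encodes an alternative alpha subunit of male germ cells. Its counts were 4 in NG1, 5 in NG2, 8 in HG2 and 24 in HG4, too few to test.

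The beta subunits hold the catalytic sites. Their summed level was 550 CPM in NG1, 395 CPM in NG2, 582 CPM in HG2 and 510 CPM in HG4, and 7 of the 8 were lowest in NG2. All 8 fold changes were above 0, with a median of 0.25, and without NG2 their median was 0.09, with 6 of 8 above 0.

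Psmb5 carries the chymotrypsin-like site and lies on chromosome 14 at 54614119 to 54618022. Its level was 29.0 CPM in NG1, 15.3 CPM in NG2, 31.9 CPM in HG2 and 33.1 CPM in HG4. The groups did not overlap, and NG1 was much nearer to the high glucose libraries than to NG2. The log2 fold change of 0.55 (SE 0.29) was the highest of all members, with an adjusted p of 0.976 by edgeR's quasi-likelihood test, and it was 0.16 without NG2. Of its 32-base stretches, 70.9% occur in other genes, among them the pseudogene Psmb5-ps.

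Psmb6 carries the caspase-like site. It was at 20.4 CPM in NG1, 12.5 CPM in NG2, 24.3 CPM in HG2 and 20.9 CPM in HG4, so that HG4 exceeded NG1 by less than 1 CPM. The log2 fold change was 0.46 (SE 0.26) and 0.14 without NG2. Psmb7, with the trypsin-like site, was at 39.6 CPM in NG1, 28.7 CPM in NG2, 41.2 CPM in HG2 and 40.8 CPM in HG4. All but NG2 agree within 2 CPM, and the log2 fold change was 0.26 (SE 0.21), or 0.05 without NG2. Exons of the antisense gene Nek6 cover 11.8% of the exons of Psmb7, and without a stated use of strand their reads cannot be told apart. Thus each of the 3 catalytic subunits was lowest in NG2.

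Psmb3, a structural beta subunit, stood at 52.0 CPM in NG1, 37.0 CPM in NG2, 59.3 CPM in HG2 and 56.0 CPM in HG4. Its groups did not overlap, with a log2 fold change of 0.37 (SE 0.21) and 0.15 without NG2. It shares 66.3% of its stretches with other genes. Psmb2 was the beta subunit that was not lowest in NG2, at 85.9 CPM in NG1, 89.7 CPM in NG2, 106.3 CPM in HG2 and 83.7 CPM in HG4. Psmb1 and Psmb4 were lowest in NG2, with log2 fold changes of 0.23 and 0.12 and overlapping groups. Psmb11, the catalytic subunit of the thymus, had 27, 8, 13 and 32 counts in NG1, NG2, HG2 and HG4. Its log2 fold change of 0.10 had an SE of 0.63, which such counts leave wide.

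The inducible subunits that replace the catalytic ones in immune cells were tested beside them. Psmb8 was at 29.3 CPM in NG1, 18.4 CPM in NG2, 28.3 CPM in HG2 and 26.4 CPM in HG4, lowest in NG2 as its constitutive counterpart Psmb5 was. Psmb9 was at 9.15, 8.46, 10.7 and 7.23 CPM and Psmb10 at 13.7, 17.02, 19.01 and 14.1 CPM in the same order. In all 3 the glucose groups overlapped.

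The ATPases of the base unfold the substrate. All 6 were lowest in NG2, and they summed to 503 CPM in NG1, 371 CPM in NG2, 541 CPM in HG2 and 501 CPM in HG4. Every fold change was above 0, with a median of 0.28, and 4 of 6 were above 0 without NG2, with a median of 0.05. Psmc5 had the highest fold change, with 63.5 CPM in NG1, 41.0 CPM in NG2, 67.8 CPM in HG2 and 65.5 CPM in HG4. NG2 was low alone, and the log2 fold change of Psmc5 was 0.35 (SE 0.23), or 0.07 without NG2.

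Psmc1 was at 56.5 CPM in NG1, 47.1 CPM in NG2, 71.5 CPM in HG2 and 57.3 CPM in HG4. Here HG2 was the library that stood highest, and HG4 was less than 1 CPM above NG1. The log2 fold change was 0.31 (SE 0.20). Psmc6 had the lowest fold change of the ATPases, 0.10 (SE 0.21), at 23.8 CPM in NG1, 18.2 CPM in NG2, 23.0 CPM in HG2 and 22.0 CPM in HG4, with NG1 highest. Psmc2, Psmc3 and Psmc4 had log2 fold changes of 0.28, 0.27 and 0.17, and among these the groups were apart in Psmc4.

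The other base subunits are the scaffolds Psmd1 and Psmd2 and the ubiquitin receptor Psmd4. Their sum was 478 CPM in NG1, 348 CPM in NG2, 481 CPM in HG2 and 494 CPM in HG4. Psmd1 was at 103 CPM in NG1, 66.7 CPM in NG2, 104 CPM in HG2 and 102 CPM in HG4, so that only NG2 stood apart, and the log2 fold change was 0.28 (SE 0.23), or -0.001 without NG2. Psmd2 was at 302 CPM in NG1, 217 CPM in NG2, 303 CPM in HG2 and 318 CPM in HG4, with a log2 fold change of 0.26 (SE 0.21). Psmd4 varied little, at 72.4 CPM in NG1, 65.1 CPM in NG2, 74.4 CPM in HG2 and 72.8 CPM in HG4. Its log2 fold change was 0.10 (SE 0.17), and the receptor was lower in NG2 by much less than the scaffolds were.

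The lid divided into genes that were low in NG2 and genes that were not. Of its 8 members, 5 were lowest in NG2 (Psmd6, Psmd7, Psmd12, Psmd13 and Psmd14), 2 in NG1 (Psmd3 and Psmd11) and 1 in HG4 (Psmd8). The latter 3 carry most of the counts, so the summed level hardly varied: 777 CPM in NG1, 801 CPM in NG2, 815 CPM in HG2 and 796 CPM in HG4. The median log2 fold change was 0.25, with 7 of 8 above 0, and -0.003 without NG2, with 4 of 8 above 0. Psmd6, Psmd7 and Psmd13 had log2 fold changes of 0.26, 0.36 and 0.14, with overlapping groups.

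Psmd14 is the deubiquitinase of the lid. It stood at 50.2 CPM in NG1, 28.03 CPM in NG2, 48.7 CPM in HG2 and 52.3 CPM in HG4. NG1 lay between the high glucose libraries, so the groups overlapped, and the log2 fold change was 0.37 (SE 0.27), or 0.01 without NG2. Psmd12, a structural lid subunit on chromosome 11 at 107479484 to 107504362, was at 20.8 CPM in NG1, 8.33 CPM in NG2, 18.5 CPM in HG2 and 24.4 CPM in HG4. Its log2 fold change of 0.55 (SE 0.38) was the highest of the lid, its groups overlapped, and the value without NG2 was 0.04.

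Psmd8 was the lid member with the lowest fold change, on chromosome 7 at 29174188 to 29180701. It was at 325 CPM in NG1, 376 CPM in NG2, 328 CPM in HG2 and 275 CPM in HG4. NG2 was its highest library, the groups overlapped, and the log2 fold change was -0.22 (SE 0.19). Psmd3 was also highest in NG2, at 117 CPM in NG1, 163 CPM in NG2, 133 CPM in HG2 and 148 CPM in HG4. Psmd11 was alike in the normal glucose libraries, at 145 CPM in NG1 and 151 CPM in NG2, and stood at 170 CPM in HG2 and 182 CPM in HG4. Its groups did not overlap, its log2 fold change was 0.25 (SE 0.17) and 0.28 without NG2, and its unadjusted p was 0.182 in edgeR's quasi-likelihood test.

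**Figure D3:**
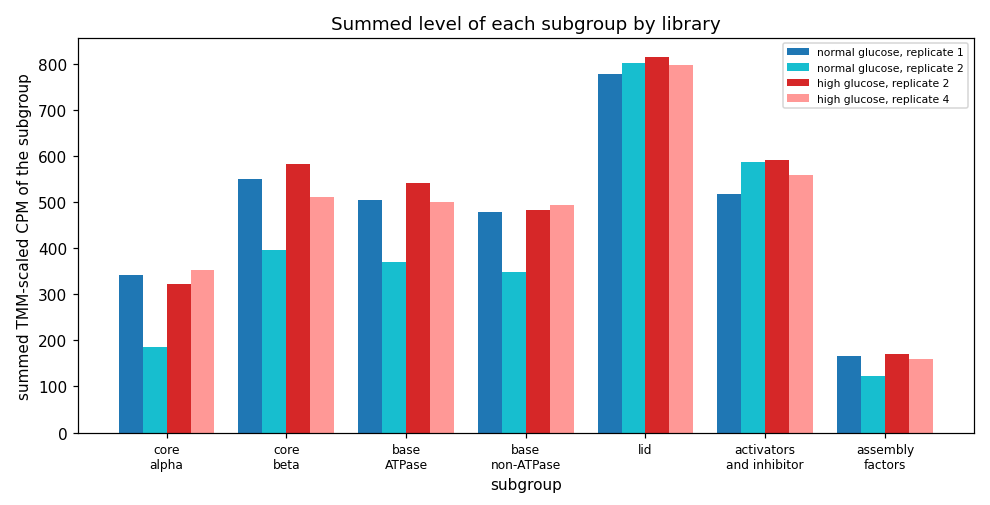
Summed TMM-scaled CPM of each subgroup, with 1 bar per library. The bar of NG2 is the lowest in the core, base and assembly subgroups, while in the lid the 4 libraries lie between 777 and 815 CPM.

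The activators bind the ends of the core in place of the regulatory particle. Together with the inhibitor Psmf1 they did not share a direction: 2 of 5 fold changes were above 0, the median was -0.001, and NG2 was the highest library in 3 (Psme1, Psme3 and Psmf1) and the lowest in 2 (Psme2 and Psme4). Psme1 and Psme2 encode the subunits of 1 hetero-oligomeric ring, lie close together on chromosome 14 and are both interferon-inducible. Psme1 was at 186 CPM in NG1, 266 CPM in NG2, 244 CPM in HG2 and 208 CPM in HG4, so that the normal glucose libraries were the extremes and the fitted log2 fold change was -0.001 (SE 0.22).

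Psme2, at 55587441 to 55591113 on chromosome 14, was at 53.7 CPM in NG1, 37.3 CPM in NG2, 63.6 CPM in HG2 and 66.0 CPM in HG4. Both high glucose libraries were above both normal ones. Its log2 fold change of 0.51 (SE 0.22) had the smallest p of all members, 0.0443 before and 0.913 after adjustment in edgeR's quasi-likelihood test. Over the alternatives the adjusted p ran from 0.0026 without NG1 to 1.00, and it was 0.564 or more in every alternative but that one. Without NG2 the log2 fold change was 0.27. Of the 32-base stretches of Psme2, 63.0% occur in other genes, chiefly Psme2b, so reads of these copies may be divided between them.

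Psme3 encodes the activator of the nucleus. It was at 142 CPM in NG1, 163 CPM in NG2, 144 CPM in HG2 and 147 CPM in HG4, with a log2 fold change of -0.07 (SE 0.18). Psme4, a large single-chain activator, was at 100 CPM in NG1, 78.7 CPM in NG2, 107 CPM in HG2 and 106 CPM in HG4. Its groups did not overlap and the log2 fold change was 0.25 (SE 0.19), or 0.08 without NG2. Psmf1, an inhibitor of the core in vitro, was the member whose high glucose libraries were both lower, at 35.4 CPM in NG1, 42.4 CPM in NG2, 33.6 CPM in HG2 and 31.8 CPM in HG4. The log2 fold change of Psmf1 was -0.25 (SE 0.19), with an unadjusted p of 0.226 in edgeR's quasi-likelihood test.

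Assembly factors build the core (Psmg1 to Psmg4) or the base (Psmd5, Psmd9 and Psmd10) and are not part of the finished particle. They summed to 165 CPM in NG1, 122 CPM in NG2, 171 CPM in HG2 and 160 CPM in HG4. The median log2 fold change was 0.25, with 6 of 7 above 0, and -0.02 without NG2, with 3 of 7 above 0. Psmg1 was at 9.31 CPM in NG1, 8.33 CPM in NG2, 13.01 CPM in HG2 and 11.1 CPM in HG4. The 2 normal glucose libraries were close to each other and below both high glucose libraries. Its log2 fold change was 0.45 (SE 0.21) and 0.37 without NG2, with an unadjusted p of 0.0661 and an adjusted p of 0.934 in edgeR's quasi-likelihood test.

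Psmg3 was at 3.37 CPM in NG1, 2.25 CPM in NG2, 3.75 CPM in HG2 and 3.98 CPM in HG4, with a log2 fold change of 0.45 (SE 0.28). NG2 was again the low library. Psmd9 was at 24.7 CPM in NG1, 19.1 CPM in NG2, 22.8 CPM in HG2 and 19.1 CPM in HG4, with a log2 fold change of -0.07 (SE 0.22). The antisense gene Gm26745 covers 25.5% of its exons. Psmd5, Psmd10, Psmg2 and Psmg4 had log2 fold changes of 0.25, 0.44, 0.10 and 0.14, with overlapping groups, and all but Psmg2 were lowest in NG2. Psmc3ip was at 1.11, 0.665, 1.07 and 0.490 CPM and Psme2b at 1.21, 0.872, 1.11 and 1.21 CPM in NG1, NG2, HG2 and HG4, with log2 fold changes of -0.22 (SE 0.50) and 0.15 (SE 0.36). Without this pair the median of the members was 0.26.

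Across the members, NG2 fell short of the mean of the other 3 libraries by a median of -0.49 on the log2 scale (CPM with 0.5 added), where the median of all genes was 0.01. It was at least 1.5-fold under that mean in 17 members (7.58% of all genes) and at least 2-fold under in 5 (1.15%). These 5 were Psma2 (-1.43), Psmd12 (-1.29), Psma3 (-1.05), Psmd10 (-1.03) and Psmb5 (-1.01). The other 3 libraries varied less: among members with a mean of 10 CPM or more, their range had a median of 0.18 (40 members), against 0.23 for all genes (8695), and no member ranged over more than 1.5-fold.

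The deviation of NG2 went with the base composition of transcripts. Across all genes with a gene model its Pearson correlation with the GC content of the longest coding transcript was 0.45 (Spearman 0.47, n = 15604), and across members 0.34 (Spearman 0.26, n = 46). These points share 1 library and are no independent replicates. Genes were also divided into 5 equal bins by GC content. In each bin the median member was lower than the median gene, and 40 of the 46 members lay under the median of their bin. In the bin with the lowest GC content the medians were -0.96 for 7 members and -0.23 for all genes, and in the bin with the highest they were -0.61 for 3 members and 0.33 for all genes. With offsets for GC content and transcript length, chosen after seeing the data, the member median in NG2 was -0.36 against -0.01 for all genes, and 37 of 46 members were below that. The log2 fold change between glucose groups then had a member median of 0.19, with 39 of 46 above 0 (51.2% of all genes) and none called (0.032% of all genes were called higher and 0% lower).

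**Figure D4:**
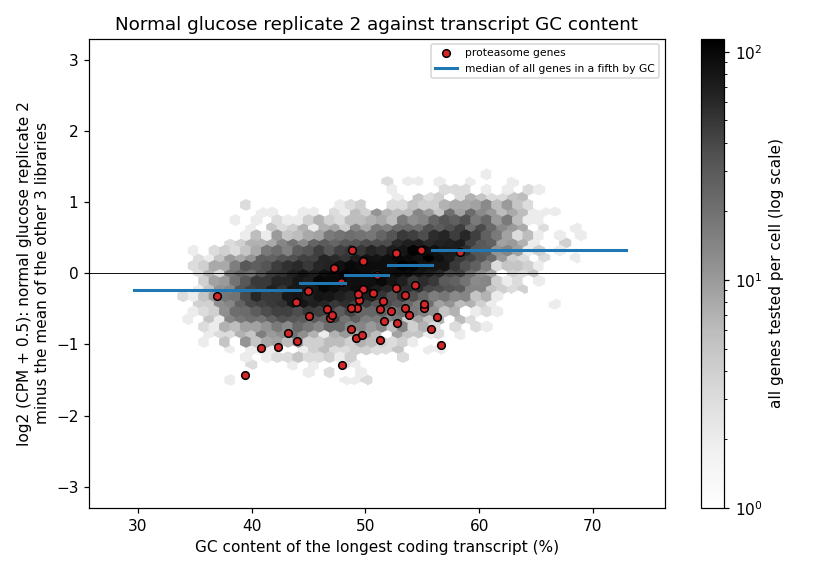
Deviation of NG2 from the mean of the other 3 libraries (log2 of CPM with 0.5 added) against transcript GC content, for all genes (shading, number of genes on a log scale) and the tested members (red points), with the median of all genes in each of 5 bins by GC content (blue lines). Of the 46 members, 40 lie under the line of their bin.

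The 77 cytosolic ribosomal protein genes, another family of abundant housekeeping transcripts, had the same low library. They summed to 25943 CPM in NG1, 20280 CPM in NG2, 25839 CPM in HG2 and 23511 CPM in HG4, and 60 of 77 were lowest in NG2. Their median log2 fold change was 0.19, and -0.11 without NG2. NG2 also had the fewest counts and the highest sums of endothelial, fibroblast, smooth muscle and leukocyte markers, given above, while the 3 Schwann cell markers summed to 4.93 CPM in NG2 and 7.09 to 8.34 CPM elsewhere and the 4 epithelial markers to 2.50 CPM in NG2 and 2.06 to 3.31 CPM elsewhere. Within the fibroblast list Pdgfra was lowest in NG2, at 262 CPM against 359 to 368 CPM. The part of GC content, depth or cell makeup in the low proteasome values of NG2 was not tested.

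Among the 39 members with a promoter window, the antioxidant response core was in 11 of the 32 that were lowest in NG2 and in 2 of the other 7. The CCAAT box was in 12 of the 32 and in 2 of the 7. The median log2 fold change was 0.28 with and 0.25 without the antioxidant response core, and 0.30 with and 0.25 without the CCAAT box. These shares describe few genes, and the difference was not tested.

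Some members share sequence with copies elsewhere or with genes that overlap them, and the sources used here do not say how reads matching several places were treated. Shared stretches were sought on both strands, so overlap with a neighbouring gene counts too. The stretches shared by Psmc3ip are those of the overlapping gene Mlx, and those shared by Psmg3 are of the overlapping gene Gm26938. At least 10% of the 32-base stretches were shared in 16 tested members, and both glucose groups were apart, with high glucose higher, in 10 of these 16 and in 6 of the other 30, against 16.3% of all genes. NG2 was lowest in 13 of the 16 and in 23 of the 30. The median log2 fold changes between glucose groups were 0.29 and 0.24, and the median deviations of NG2 from the other 3 libraries were -0.50 and -0.49. The part of shared sequence in these values was not tested.

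Levels were compared between subunits only per length of the longest coding transcript, as the mean ± SD over the 4 libraries. Although the subunits of a particle are present in equal numbers, the level of their transcripts was not equal. Among the beta subunits it was 172 ± 33.9 CPM per kb for Psmb4, 106 ± 11.9 for Psmb2 and 66.7 ± 12.8 for Psmb3. The 3 catalytic subunits were the lowest of this ring apart from the thymic Psmb11: 32.4 ± 5.14 CPM per kb for Psmb7, 30.4 ± 9.13 for Psmb5 and 24.5 ± 6.3 for Psmb6. Of their 32-base stretches, 33.0%, 70.9% and 14.3% occur in other genes, against 0% for Psmb4 and Psmb2 and 66.3% for Psmb3. These shares include overlapping genes at the same place, Nek6 for Psmb7 and Mir686 for Psmb5. The part of shared sequence in these levels was not tested. The mean of Psmb5 differed by less than 1 SD from those of Psmb6 and Psmb7. This SD is a spread over libraries, with the low values of NG2 in it, and does not compare genes within a library. Within libraries, Psmb5 was above Psmb6 in each, though by little in NG2. It was below Psmb7 in NG1 and NG2, nearly level with it in HG2 and above it in HG4. The difference between these genes was not tested.

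Among the alpha subunits the level ran from 7.87 ± 2.59 CPM per kb for Psma3 to 65.4 ± 19.5 for Psma7. Of the 32-base stretches, 27.7% of those of Psma3 and 0% of those of Psma7 occur in other genes. The part of shared sequence in this range was not tested. The ATPases ran from 9.74 ± 1.1 CPM per kb for Psmc6 to 91.2 ± 9.34 for Psmc4. Psmc3 was next, at 83.4 ± 13.6, and was below Psmc4 in each library, though by little in HG2 (96.0 against 97.2). The lid ran from 9.21 ± 3.53 CPM per kb for Psmd12 to 164 ± 20.8 for Psmd8, and the activator Psme1 was the highest of all members, at 203 ± 32 CPM per kb. With the same CPM divided by the length of coding sequence, Psmd8 was the highest, at 430 CPM per coding kb, before Psme1 at 303 and Psmb4 at 257. Only the length leaves out the untranslated regions here, and the counts are unchanged. The length falls from 1983 to 759 bases in Psmd8 and from 1112 to 747 in Psme1. The order of Psmd8 and Psme1 thus depends on the length used. With Psma8 and Psmb11 left out, the lowest within each subgroup was the same gene on either scale. It was Psma3 among the alpha subunits, Psmb6 among the beta subunits, Psmc6 among the ATPases and Psmd12 in the lid.

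**Figure D5:**
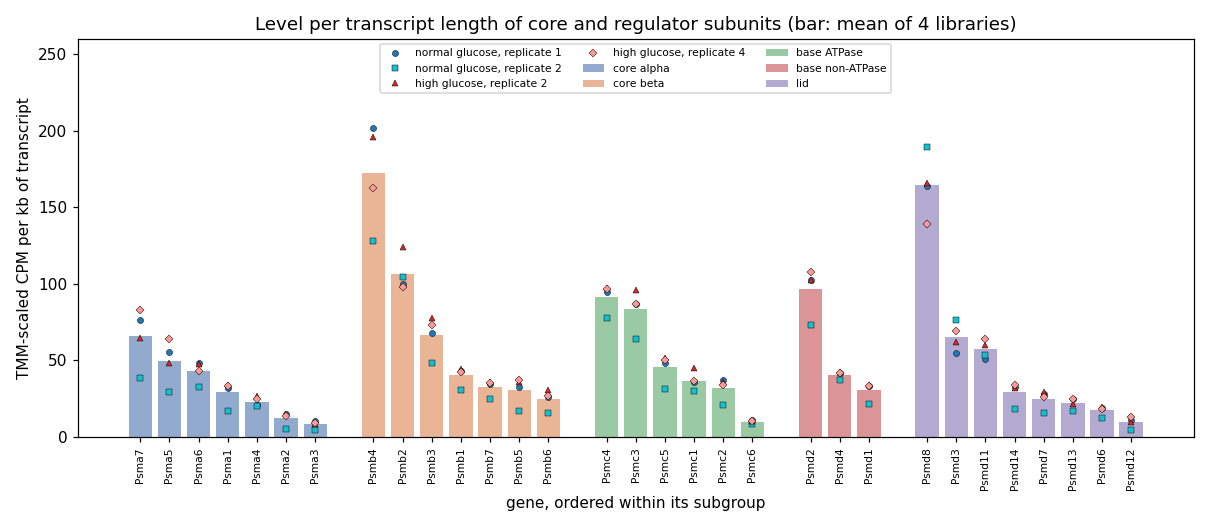
Level per length of transcript (TMM-scaled CPM per kb) of core and regulatory subunits, ordered within each subgroup, with bars at the mean of 4 libraries and 1 point per library. Psmb4 and Psmd8 are the highest bars, at 172 and 164 CPM per kb. The square of NG2 lies under the top of the bar of most subunits but above it in Psmd3 and Psmd8.

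The other genes of the pathway, from a list of 34 symbols, were spread on both sides of 0. None of the 33 tested was called (0.0123% of all genes were called higher and 0% lower). Of the 33, 19 were above 0 (49.2% of all genes), and the median log2 fold change was 0.02. NG2 was the lowest library in 12 (35.4% of all genes) and the highest in 12 (36.5%). Both high glucose libraries lay above both normal ones in 8 (16.3% of all genes) and below them in 1 (16.2%). Pomp, the chaperone that matures the core, resembled the core subunits, at 41.9 CPM in NG1, 21.4 CPM in NG2, 36.8 CPM in HG2 and 40.4 CPM in HG4. The transcription factor Nfe2l1 was at 231 CPM in NG1, 267 CPM in NG2, 239 CPM in HG2 and 254.6 CPM in HG4, with overlapping groups and a log2 fold change of -0.01 (SE 0.18).

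Nfe2l2, the regulator of the antioxidant response, was at 165 CPM in NG1, 192 CPM in NG2, 243 CPM in HG2 and 199 CPM in HG4. Both high glucose libraries were above both normal ones, by a log2 fold change of 0.31 (SE 0.19) with an unadjusted p of 0.153 in edgeR's quasi-likelihood test. Vcp, the ATPase that extracts ubiquitinated proteins for the proteasome, had the smallest p of the list, 0.135 before adjustment in the same edgeR test. It was at 412 CPM in NG1, 362 CPM in NG2, 468 CPM in HG2 and 482 CPM in HG4, with a log2 fold change of 0.30 (SE 0.18), and 68.0% of its stretches occur in other genes. Uchl5, a deubiquitinase of the regulatory particle, was at 3.24 CPM in NG1, 1.12 CPM in NG2, 0.957 CPM in HG2 and 1.61 CPM in HG4. NG1 was its high library, the groups overlapped, and the log2 fold change was -0.78 (SE 0.50). Akirin2, which brings proteasomes into the nucleus, was at 27.2 CPM in NG1, 43.8 CPM in NG2, 24.3 CPM in HG2 and 32.05 CPM in HG4, with overlapping groups and a log2 fold change of -0.33 (SE 0.27).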

How the data were processed

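RNA-seq was measured in 4 libraries of cultured mouse cells, 2 per group. The deposited values are whole-number counts for each gene symbol, in a file for each library. TopHat, edgeR and the build mm10 are named in the submitters' processing notes, with no version or role. The sources used here do not give the counting tool, its use of strand or its treatment of multiple matches. Of 23282 rows, those sharing a symbol (35 symbols) were summed. Libraries held 46571770 to 74971589 counts, and pairs differed beyond sampling noise (chi-square per degree of freedom 66.2 to 165).

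Genes were tested with edgeR 4.0.16 (R 4.3.3; quasi-likelihood test, TMM, filterByExpr, group as the only term, two-sided), with Benjamini-Hochberg adjustment over 16270 genes and a threshold of 0.05. The common biological coefficient of variation was 20.0%. CPM values are TMM-scaled. Alternatives used other scalings, no filter, DESeq2 1.42.0, limma-voom (limma 3.58.1), edgeR's exact test and each library left out. Offsets for GC content and length, and 2 shorter member lists, were chosen after seeing the data. The script was tested on simulated data. Gene models are those of GENCODE vM21 (GRCm38, also called mm10), and promoters are from RefSeq on GRCm38.p6.

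The members, subgroups and lists were chosen with earlier results of these data known. Full values are given for the 10 members with the smallest p, the highest and lowest fold change of each subgroup, the catalytic subunits, the activators and a few set genes (Psmd4, Psmd14, Psmc5, Psmf1, Psma8 and Psmb11), and for members apart in the direction opposite to their subgroup. Psmb2, Psmd2, Psmd3 and Psmd11, and the members at least 2-fold under in NG2, were named after their values were seen.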

Additional observations from a re-analysis of the deposited data

How the results depend on the processing

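No paired analysis was possible because replicate number 2 alone occurs in both groups. None of the 46 or 47 tested members was called under other scalings, without a filter, with DESeq2, limma-voom or the exact test, with the offsets for GC content and length (chosen after seeing the data), or without NG2, HG2 or HG4. Leaving out each library in turn gave 0 to 22 members called higher and 0 called lower. The 22 appeared without NG1, where 7.56% of all genes were called higher and 8.67% lower, and the cause was not tested. The member median then ran from 0.021 (without NG2) to 0.52 (without NG1), and it was 0.19 to 0.28 under the other alternatives. For the pathway list the same range was 0 to 3 called higher and 0 to 2 lower, with calls only without NG1.

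Counts over all genes, 2 higher and 0 lower in the reported fit, were 62 higher and 65 lower with no filter on low counts, 33 and 33 with DESeq2, 56 and 56 with edgeR's exact test, and 5 higher with the offsets. Leaving out each library gave 20 to 1262 higher and 12 to 1446 lower. A threshold of 0.1 moved no count by more than 1.5 times. No scaling moved the median of all genes by over 0.1 on the log2 scale. Psma8 (4 to 24 counts) and Psmb11 (8 to 32 counts) had too few counts for a precise value.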
